A study of Mus musculus with 1019 samples.

Results

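Klrg1 is 1 of the 23725 genes in a table of single regulatory T cell (Treg) transcriptomes, and it was followed here across the 3 libraries of that table by its own row, chosen by name and not by a threshold. The cells came from epididymal visceral adipose tissue (VAT) and from the spleen of male B6 mice aged 20 months and were sorted in both tissues as DAPI- TCRb+ CD4+ CD25+ cells. They were profiled by inDrops, a droplet method that reads the 3' end of each mRNA and marks each captured molecule with a unique molecular identifier (UMI). Single cells were freed from VAT by collagenase and dispase and from spleen by mechanical means, so tissue and dissociation cannot be told apart in any VAT to spleen difference. Of 1019 cells, 644 were VAT cells, 330 of them in VAT library 2 and the rest in VAT library 3 (numbered as in the labels), and the others came from a single spleen library.

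Klrg1 encodes killer cell lectin-like receptor G1, an inhibitory receptor of the C-type lectin-like family on T cells and natural killer (NK) cells. It binds classical cadherins (E-, N- and R-cadherin) on neighbouring cells, and its cytoplasmic motif (ITIM) recruits the phosphatases SHIP-1 and SHP-2, which dampen antigen receptor signalling. It is widely used as a marker of terminally differentiated effector CD8+ T cells, of mature NK cells, of group 2 innate lymphoid cells (ILC2) and of Tregs that reside in tissues such as VAT. On the mouse build GRCm38, GENCODE M21 places the gene on chromosome 6, minus strand, from 122270596 to 122282882, with 1 transcript of 5 exons and 0 annotated genes overlapping it.

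The libraries held 556099 UMIs in VAT library 2, 548770 in VAT library 3 and 573622 in spleen. The median cell had 1565, 1611 and 1423 UMIs in the same order. No animal is named in the labels, and cells of 1 library are not replicates, so each library is 1 sample, no p-value was computed, and every interval given is an exact 95% one for counting error alone. Counts of 1 gene varied between cells more than counting alone allows, as shown for Klrg1 below, so these intervals are too narrow. A defining Treg marker was detected in 96.7% of cells of VAT library 2, in 94.9% of VAT library 3 and in 81.6% of spleen cells. The labels of the spleen cells disagree: the source is spleen, whereas the tissue field also names visceral adipose, and the library number differs between the title and the sample type. The series title further names conventional T cells without FoxP3, which the sort on CD25 described for these cells does not single out. Among all cells, 3 barcodes occurred in more than 1 library.

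Klrg1 was among the most abundant transcripts of VAT Tregs and was rare in spleen Tregs. It had 1921 UMIs in VAT library 2, 1746 in VAT library 3 and 51 in spleen. As CPM, the count scaled to a common library total, its level was 3454 (3302 to 3612) in VAT library 2, 3182 (3034 to 3334) in VAT library 3 and 88.9 (66.2 to 117) in spleen. By level it stood at rank 31 of all genes in VAT library 2, at rank 42 in VAT library 3 and at rank 1669 in spleen. The VAT libraries were close to each other, with a ratio of 1.09 (1.02 to 1.16), and both lay far above spleen, the summed VAT ratio being 37.3 (28.3 to 50.2). In such sums, fewer cells with the gene and less of its RNA per cell cannot be told apart.

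Large ratios to spleen were not rare in these libraries: of 4635 genes with 50 or more UMIs over the libraries, 478 (10.3%) exceeded the spleen level by 2-fold or more in each VAT library, and 204 (4.4%) were below it by as much in each. The count of lower genes was 342 when library totals excluded ribosomal protein genes, 409 without VAT library 2 and 343 without VAT library 3. Among the 478 higher genes Klrg1 stood at rank 32 by the smaller of its ratios, at rank 10 by level and at rank 17 by the share of VAT cells with a UMI. Of those genes, 333 had a UMI in at most 5% of spleen cells, and among them Klrg1 was found in the largest share of VAT cells, 83.9% of cells in VAT library 2, 89.2% in VAT library 3 and 3.20% in spleen. The next genes in that order were Fosb, an AP-1 subunit, with 71.2%, 67.5% and 0%, Il1rl1, the receptor for interleukin-33, with 66.7%, 66.6% and 3.20%, and Areg, the growth factor amphiregulin, with 65.2%, 69.4% and 1.60%. The order is by the smaller VAT share, which puts the nuclear lamina gene Lmna, with 66.4%, 65.3% and 0.267%, between Il1rl1 and Areg.

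The counts per cell showed a broad, skewed spread in VAT and isolated cells in spleen. The median VAT cell had 5 Klrg1 UMIs in both libraries and the highest had 34 in VAT library 2 and 29 in VAT library 3, whereas the median spleen cell had 0 and the highest had 12. In VAT library 2, 53 cells had 0 UMIs, 59 had 1 to 2, 73 had 3 to 5, 73 had 6 to 9, 64 had 10 to 19 and 8 had 20 or more. VAT library 3 was alike, with 34, 72, 78, 72, 49 and 9 cells in the same classes. In spleen, 363 cells had 0 UMIs, 6 had 1 to 2, 3 had 3 to 5, 1 had 6 to 9 and 2 had 10 to 19. The ranges of the tissues overlapped, since VAT cells without a UMI and spleen cells with up to 12 UMIs were both present.

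**Figure D1:**
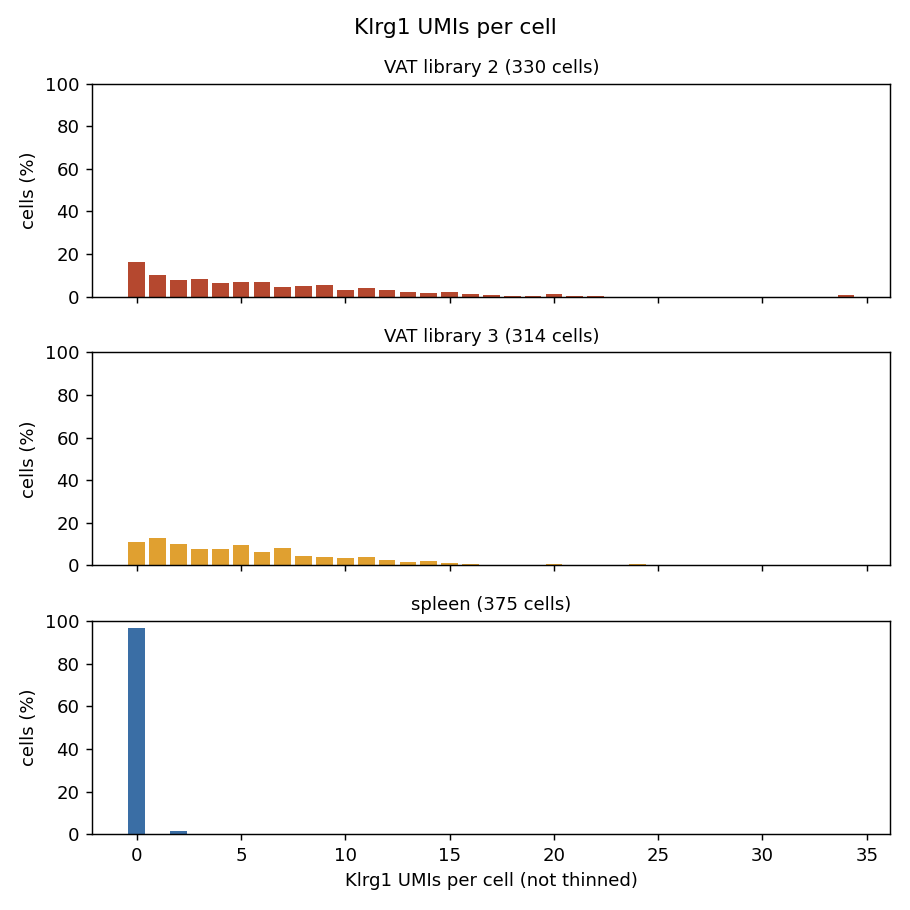
Klrg1 UMIs per cell (x axis, counts as deposited) against the percent of cells of each library (y axis), with VAT library 2, VAT library 3 and spleen from top to bottom. The VAT libraries spread from 0 to 34 and 29 UMIs with a median of 5, and all but 12 spleen cells stand at 0.

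Cells differ in depth, so each was thinned to 800 UMIs without replacement, a depth every cell reached, and the expected share of cells with a Klrg1 UMI was computed. It was 75.7% (70.8 to 80.3) in VAT library 2, 77.8% (72.7 to 82.2) in VAT library 3 and 2.75% (1.29 to 4.85) in spleen. At that depth VAT cells averaged 2.75 Klrg1 UMIs in library 2 and 2.56 in library 3, against 0.0728 in spleen cells. If every cell of a library had the same Klrg1 level, counting alone would leave 6.42% of cells of VAT library 2, 7.73% of VAT library 3 and 92.98% of spleen cells without a UMI; the expected shares were 24.3%, 22.2% and 97.3%. A negative binomial distribution with the same mean and variance would leave 19.3%, 20.0% and 96.9%. The variance over the mean, which is 1 for counting alone, was 2.58 in VAT library 2, 2.38 in VAT library 3 and 4.37 in spleen after thinning. Among genes within 2-fold of its mean, Klrg1 stood at rank 13 of 88 by this measure in VAT library 2, where the median was 1.47, and at rank 16 of 103 in VAT library 3, where it was 1.498, below genes such as Cxcl2, Nr4a1 and Fosb.

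A minority of VAT cells carried much of the Klrg1 RNA. Cells with 10 or more UMIs were 72 of the 330 in VAT library 2 (21.8%) and held 52.5% of its Klrg1 UMIs, and they were 58 in VAT library 3 (18.5%) and held 46.0%. These are counts before thinning, and deeper cells pass a fixed cut more easily. The part of depth and counting in these shares was not tested. Per 1000 UMIs of the cell, the median Klrg1 rate was 2.81 in VAT library 2, with quartiles at 0.920 and 5.25, and 2.72 in VAT library 3, with quartiles at 0.919 and 4.64. Among cells with at least 1 Klrg1 UMI, the median was 6 UMIs in VAT library 2, 5 in VAT library 3 and 2.5 in spleen, and the median rate was 3.45, 3.02 and 1.77 per 1000 UMIs. A cell entered these medians only with a UMI, so they are not levels over all cells. The share of cells with a UMI differed between the tissues by far more than these medians. The entry rule keeps the medians at 1 UMI or more, and the share itself depends on the level per cell. These medians and shares alone therefore do not separate fewer cells with the gene from less of its RNA per cell. The spleen counts did lie in fewer cells than 1 level shared by all cells would give. After thinning, 97.3% of spleen cells were expected without a UMI, against 92.98% at 1 shared level. Of the 12 spleen cells with Klrg1, 1 held a single UMI and 2 held 10 to 19.

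Foxp3, the transcription factor that defines Tregs, was itself detected in a minority of cells, and Klrg1 was described on both sides of that detection. In VAT library 2, 78.6% of the 128 cells with a Foxp3 UMI and 73.8% of the 202 without had a Klrg1 UMI after thinning. The shares were 77.7% of 98 and 77.8% of 216 cells in VAT library 3. In spleen they were 5.16% of 130 cells with a Foxp3 UMI and 1.47% of 245 without. With cells holding a Foxp3 UMI alone, the VAT to spleen ratio of Klrg1 was 19.6, lower than the 37.3 over all cells, and the spleen level in those cells was 173 CPM.

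Other cells that carry KLRG1, and other cells a sort can hold, were looked for by defining markers, a subset of each marker list. Of the CD8 and NK markers, Cd8a, Ncr1, Klrb1c, Klre1 and Eomes had 0 UMIs in all 3 libraries, and the list's 33 UMIs in VAT library 2, 30 in VAT library 3 and 28 in spleen came nearly all from Cd8b1. They lay in 27, 26 and 25 cells, or 8.18%, 8.28% and 6.67%. Cells with a Klrg1 UMI held one in 8.30%, 8.93% and 8.33%, and cells without in 7.55%, 2.94% and 6.61%. Markers of ILC2 (Il5, Il13 and Il17rb) were found in 8, 8 and 0 cells of the 3 libraries, with 9, 9 and 0 UMIs, while Klrg1 was found in 277, 280 and 12 cells. The whole ILC2 list of 7 genes had 55, 67 and 12 UMIs, of which Hlf, a transcription factor gene, had 29, 41 and 3 and Calca, a neuropeptide gene, 11, 8 and 0, so these were higher in VAT. The sort gated on TCRb and CD4, its purity was not measured here, and the part of ILC2 in the Klrg1 level was not tested. Defining B cell markers had 0, 1 and 1 UMIs, myeloid markers 6, 4 and 5, adipocyte markers 2, 3 and 0, stromal and endothelial markers 1, 4 and 30, and erythroid markers 1, 0 and 104. The whole myeloid list of 10 genes had 127, 128 and 259 UMIs, mostly from Cst3 with 112, 118 and 46 and from the protease gene Ctss with 8, 6 and 206. Leaving out every cell with a UMI of any of the defining markers, a choice made after seeing the data, kept 288, 269 and 254 cells, in which Klrg1 was detected after thinning in 75.8%, 77.1% and 1.86%. The VAT to spleen ratio then was 72.1, because 6 of the 12 spleen cells with Klrg1, holding 34 of its 51 UMIs, were among those left out. The size of the ratio therefore rests on a handful of spleen cells, and over these subsets the lowest ratio was 17.7, in VAT library 3 with Foxp3 cells alone.

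The 12 spleen cells with a Klrg1 UMI held 1, 2, 2, 2, 2, 2, 3, 4, 5, 6, 10 and 12 Klrg1 UMIs, so that 1 of them rested on a single UMI. The cells with 10 and 12 UMIs held 43.1% of the library's Klrg1 UMIs. At a median of 1356 UMIs per cell they were not deeper than the 363 spleen cells without Klrg1, whose median was 1424. Defining erythroid markers were found in 41.7% of the 12 cells and in 19.01% of the 363; the part of free RNA in the spleen share was not tested. All 12 cells had a UMI of a defining Treg marker and of a T cell marker, as did 81.0% and 80.2% of the 363.

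These 12 cells carried more RNA of the tissue Treg list than the other spleen cells, though not of all its genes. The tissue Treg list of 24 genes, which does not hold Klrg1, had 104 UMIs in the 12 cells and 970 in the 363, a ratio of 3.12 (2.53 to 3.83) per total UMIs. By cell, its level ran from 1.18 to 11.03 UMIs per 1000 with a median of 6.199 in the 12 cells, against a median of 0.896 in the 363, of which 31.1% had none, and VAT cells with Klrg1 had medians of 9.62 in library 2 and 8.83 in library 3. Il1rl1 had 5 UMIs in 3 of the 12 cells and 10 UMIs in 9 of the 363, a ratio of 14.6 (3.91 to 46.8). Tnfrsf4 (OX40), a costimulatory receptor of activated Tregs, was found in 10 of the 12 cells and 88 of the 363, with a ratio of 3.90 (2.41 to 6.04). Id2, a regulator of effector differentiation, had a ratio of 4.68 (2.04 to 9.54), the costimulator Icos 2.98 (1.81 to 4.69) and the Treg transcription factor Ikzf2 3.11 (2.11 to 4.43). Areg had 8 UMIs, but all came from 1 of the 12 cells. Of the list's 104 UMIs in the 12 cells, 23 were of Tnfrsf4 and 21 of Icos. Icos was not higher in VAT than in spleen, with ratios of 0.776 in VAT library 2 and 0.860 in VAT library 3. Tnfrsf9 was at 0.550 (0.0657 to 2.04) in the 12 cells. Ccr2 had 1 UMI there and Cxcr6, Il10 and Dgat1 had 0, against 3, 2, 8 and 14 in the 363, counts too low to compare.

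The Treg core list was higher too, at 1.86 (1.58 to 2.18), within which Tnfrsf18 (GITR) was found in 11 of 12 cells against 108 of 363, with a ratio of 3.11 (1.73 to 5.21), and Foxp3 in 8 of 12 against 122 of 363, with a ratio of 1.82 (0.953 to 3.18) whose interval includes 1. AP-1 and immediate early genes had a ratio of 3.07 (2.48 to 3.78) and S100 and annexin genes 1.95 (1.51 to 2.48), but members differed. Of the 100 AP-1 and immediate early UMIs in the 12 cells, 33 were of Junb, 23 of Jund and 13 of Dusp1. All 9 of Fosl2 came from 1 cell. Jun was at 0.647 (0.0160 to 3.80) and Zfp36 at 0.462 (0.0115 to 2.67), and Ier2 had 0 UMIs. S100a11 was at 3.92 (2.07 to 6.88) and S100a4 at 2.91 (1.29 to 5.78). S100a6, at 1.18 (0.315 to 3.11), and S100a10, at 1.24 (0.633 to 2.20), had intervals that include 1. The cell cycle list was at 1.84 (1.45 to 2.30) and found in all 12 cells against 296 of the 363. Of its 81 UMIs in the 12 cells, 47 were of H2afz, at 3.86 (2.78 to 5.24). Mcm6 was higher too, at 6.20 (2.79 to 12.4), whereas Mki67 and Top2a had 0 UMIs in the 12 cells and Tubb5 was at 0.560 (0.204 to 1.23). The inhibitory receptor list was at 1.57 (1.16 to 2.08), but 35 of its 50 UMIs in the 12 cells were of Laptm5. Pdcd1 was at 4.48 (1.14 to 12.9) and Ctla4 at 2.08 (0.655 to 5.09), while Lag3 and Btla had 0 UMIs in the 12 cells. Genes of lymphoid homing and resting cells were lower, at 0.543 (0.377 to 0.758). Of these, Klf2, which drives exit from tissues, had 0 UMIs in the 12 cells and 97 UMIs in 69 of the 363, and the lymph node homing receptor Ccr7 had 0 UMIs in the 12 cells and 76 UMIs in 47 of the 363. At the rate of the 363 cells, 3.33 UMIs of Klf2 and 2.61 of Ccr7 would fall in the 12, close to the 3 counts that a count of 0 allows, so neither gene alone shows a clear difference at this depth. Heat shock genes, at 0.895 (0.726 to 1.09), and the list of T cell receptor genes with Cd4, at 1.11 (0.885 to 1.39), differed by less than their counting error, although Cd4 itself was at 2.97 (2.06 to 4.17).

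**Figure D2:**
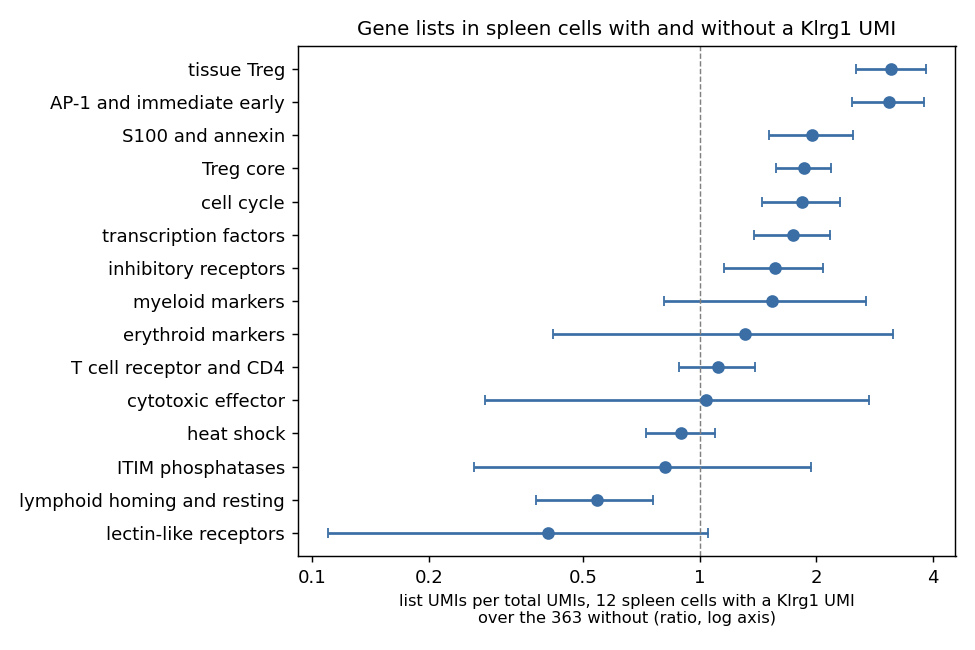
For gene lists with 100 or more UMIs in spleen, the ratio of list UMIs per total UMIs in the 12 spleen cells with a Klrg1 UMI over the 363 without (x axis, log scale), 1 list per row; points are ratios, bars exact 95% counting intervals, and the dashed line marks 1. The tissue Treg list stands highest at 3.12, and lymphoid homing and resting genes lie below 1 at 0.543.

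Molecules that act with KLRG1 were read next, starting with its ligands. E-cadherin (Cdh1) and R-cadherin (Cdh4) had 0 UMIs in both VAT libraries and 2 each in spleen, and N-cadherin (Cdh2) had 0 in all 3, so ligand RNA was not detected in VAT, where a count of 0 allows up to 5.39 CPM in library 2 and 5.47 in library 3, and the ligands together had 6.97 CPM in spleen. Of the 4 phosphatases recruited by ITIM receptors, Inpp5d (SHIP-1) had 105 UMIs in VAT library 2, 115 in VAT library 3 and 68 in spleen, 1.59-fold (1.16 to 2.19) and 1.77-fold (1.30 to 2.42) above spleen. Ptpn6 (SHP-1) went the other way, with 26, 24 and 70 UMIs and ratios of 0.383 (0.234 to 0.609) and 0.358 (0.216 to 0.577), and was the only one of the 4 that passed the 2-fold rule, for which the background with 20 or more UMIs is 6.45% lower and 10.5% higher. Ptpn11 (SHP-2) had 31, 30 and 40 UMIs and Inppl1 (SHIP-2) 13, 10 and 6, with intervals that include 1 for both.

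Klrg1 was alone among the killer cell lectin-like receptor genes in being abundant. Of 31 other genes of the lectin-like family, 22 had 0 UMIs in all 3 libraries, among them Klrd1, Klrc1, Klrb1c and all listed Klra (Ly49) genes, and 3 had 20 or more UMIs in all. Klrk1, the activating receptor NKG2D, had 2, 0 and 4 UMIs. Cd69, a retention and early activation molecule, was the only one of these 3 that was higher in VAT, with 722 UMIs in VAT library 2, 640 in VAT library 3 and 28 in spleen and ratios of 26.6 (18.2 to 40.3) and 23.9 (16.4 to 36.2). Clec2d, a ligand of receptors of the Klrb1 family, was lower, with 97, 81 and 206 UMIs and ratios of 0.486 (0.378 to 0.621) and 0.411 (0.314 to 0.534), and Clec2g was lower with 7, 11 and 29 UMIs.

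Other inhibitory receptors of T cells did not move as a block. Of the 8 measured by 20 or more UMIs, 3 passed the 2-fold rule upwards in VAT and 2 downwards, beside 10.5% and 6.45% of all genes with 20 or more UMIs. Ctla4, which competes for CD28 ligands, had 351, 308 and 75 UMIs, Pdcd1 (PD-1) 77, 62 and 30, and Cd200r1 148, 163 and 20, with ratios of 7.63 (4.77 to 12.9) and 8.52 (5.34 to 14.3) for Cd200r1. Lag3 had 1, 1 and 18 UMIs and Btla 0, 4 and 27. Klrg1 had more UMIs in VAT than Ctla4, Pdcd1 and Cd200r1 together, a comparison of 3' tag counts.

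The effector genes that accompany KLRG1 on CD8+ T cells and NK cells were near absent. Of 12 cytotoxic effector genes, 1 of the 4 with 20 or more UMIs was higher in VAT (10.5% of all such genes were), Gzmb (granzyme B) with 63, 44 and 1 UMIs, found in 7.58% of cells of VAT library 2, 4.14% of VAT library 3 and 0.267% of spleen. Gzma had 1, 0 and 0 UMIs, the perforin gene Prf1 3, 2 and 5 and the granule gene Nkg7 4, 6 and 5, while the chemokine Ccl5 was lower in VAT with 4, 15 and 51. The T-box factors of effector cells were likewise scarce, Tbx21 with 1, 5 and 6 UMIs and Eomes with 0 in every library. Of the 20 measured transcription factors, 7 were higher in VAT and 6 lower, beside the same 10.5% and 6.45%. The higher ones include Id2 (383, 391 and 65 UMIs), Gata3 (780, 578 and 132), Irf4 (75, 61 and 10) and Prdm1, which encodes Blimp-1 (51, 36 and 14). The lower ones include Id3 (0, 0 and 58), Tcf7 (0, 0 and 22) and Bach2 (3, 6 and 26), which are linked to resting or memory states.

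Genes beside Klrg1 on chromosome 6 did not share its ratio. Of 31 annotated genes within 500 kb, 14 were in the table and 6 had a UMI. The nearest of these, M6pr, the cation-dependent mannose-6-phosphate receptor, had 151, 153 and 113 UMIs and ratios of 1.38 (1.07 to 1.77) and 1.42 (1.10 to 1.82). Slc2a3, a glucose transporter at the far side of the window, was higher in VAT with 114, 83 and 32 UMIs and ratios of 3.67 (2.46 to 5.62) and 2.71 (1.78 to 4.21). Apobec1 was lower with 3, 4 and 22 UMIs, Phc1 had 13, 9 and 6, Gdf3 1, 4 and 4, and Nanog 2, 0 and 2.

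Within VAT, the question was which genes go with Klrg1 from cell to cell at equal depth. Spearman's rho was computed across the 330 cells of VAT library 2 and, apart from them, across those of VAT library 3 on counts thinned to 800 UMIs, as the mean of 20 draws, for 754 genes with 100 or more UMIs in each library; cells of a library share its preparation, and rho is a description with no p. A gene was said to follow Klrg1 with a rho of 0.15 or more, or of -0.15 or less, in both libraries. No gene did: 0 of 754 were above (0%) and 0 were below (0%). The rho values centred on -0.0018 in VAT library 2 and -0.0016 in VAT library 3 and spread with an SD of 0.0422 and 0.0455. For a single rank correlation, 1 over the square root of the number of cells gives 0.055 and 0.0564. Each rho here is a mean of 20 draws, which narrows the spread, so these are not like measures. The extremes in VAT library 2 were Rtn4 at 0.146 and Rab33b at -0.12, and in VAT library 3 Numa1 at 0.133 and Rps2 at -0.155.

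Genes ranked in 1 VAT library kept little of their values in the other. The 25 highest genes of VAT library 2, with a median rho of 0.089 there, had a median of -0.00057 in VAT library 3, where 12 of the 25 were positive. The 25 highest of VAT library 3, with a median of 0.0963, had a median of 0.026 in VAT library 2, where 19 were positive. The 25 lowest of VAT library 2, with a median of -0.0896, had a median of -0.0146 in VAT library 3, where 15 were negative. The 25 lowest of VAT library 3, with a median of -0.103, had a median of -0.0259 in VAT library 2, where 17 were negative. Against the cell's total UMIs before thinning, Klrg1 had a rho of 0.04 in VAT library 2 and -0.0131 in VAT library 3. Against mapped reads per UMI it had 0.099 in VAT library 2, as large as the values of the highest genes there, and 0.0122 in VAT library 3, and the part of read depth in rho was not tested.

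The genes nearest to Klrg1 by the smaller of both values were led by S100a4, a calcium-binding protein of motile cells, with 0.14 in VAT library 2 and 0.112 in VAT library 3. Itm2b (0.0927 and 0.079), the glutamine synthetase gene Glul (0.0768 and 0.0776), S100a10 (0.0706 and 0.0891) and the protease inhibitor gene Cst3 (0.0748 and 0.0684) came next. S100a6, with 0.0615 and 0.131, and Il1rl1, with 0.0975 and 0.0569, were within the first 15. The lowest were led by the ribosomal protein gene Rps25 (-0.0905 and -0.0921), followed by Psenen (-0.0911 and -0.0883), a gamma-secretase subunit, and Mpv17 (-0.0887 and -0.0815). All of these are under the threshold, and in counts this sparse values of that size are not a finding.

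**Figure D3:**
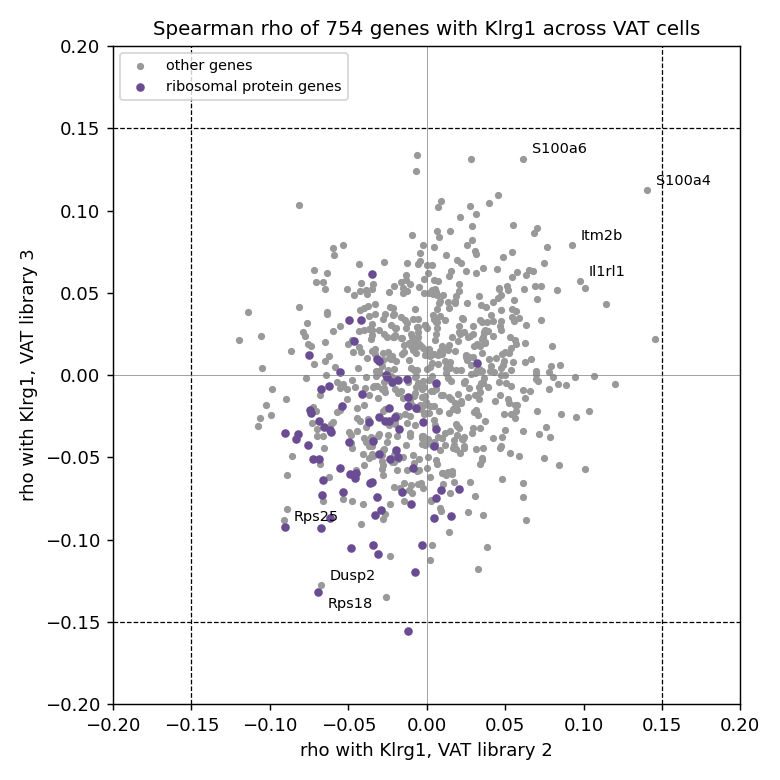
Spearman rho with Klrg1 across the cells of VAT library 2 (x axis) and of VAT library 3 (y axis) for 754 genes, after thinning to 800 UMIs; each point is a gene, ribosomal protein genes are in purple, and dashed lines mark 0.15 and -0.15. No point lies past 0.15 or -0.15 in both libraries, and S100a4 is the highest at 0.14 and 0.112.

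Lists showed shifts of sign and no large value. Of 11 tested tissue Treg genes, 7 had a positive rho in both VAT libraries, or 63.6%, beside 27.5% of all 754 genes, with medians of 0.0265 in VAT library 2 and 0.0232 in VAT library 3. Of 80 ribosomal protein genes, 63 were negative in both, or 78.8%, beside 30.5% of all genes, with medians of -0.0335 and -0.0394. Summed over the list, ribosomal protein UMIs had a rho with Klrg1 of -0.117 in VAT library 2 and -0.136 in VAT library 3, S100 and annexin UMIs 0.112 and 0.161, and tissue Treg UMIs 0.0446 and 0.103. AP-1 and immediate early genes gave -0.0153 and 0.0409, and T cell receptor genes with Cd4 gave 0.069 and -0.104, of opposite sign. At a fixed number of UMIs per cell the lists share 1 total, so a list with more UMIs leaves fewer for others, and ribosomal proteins took 141 of 800 UMIs in VAT library 2 and 156 in VAT library 3.

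The lack of followers was set beside how well Klrg1 itself could be measured, a comparison chosen after seeing the data. Each thinned cell was split into disjoint draws of 400 UMIs, and Klrg1 in 1 draw was compared with Klrg1 in the other. Its rho with itself was 0.469 in VAT library 2 and 0.415 in VAT library 3, which put it at rank 9 of 88 genes with 1000 or more UMIs in each VAT library, whose median was 0.2 by the smaller value. The ranking of cells by Klrg1 was thus partly shared by both draws, at less depth than that of the comparison with other genes. The part of technical differences between droplets in this value was not tested.

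The same 88 genes were searched for partners among the 754 by the same threshold. Klrg1 had 0 partners, and its closest gene, S100a4 with a smaller rho of 0.112, placed it at rank 67 of 88, below the median closest rho of 0.139. At least 1 partner was found for 38 of the 88. In 16 of these 38 the closest rho exceeded the gene's rho with itself, as in H2-K1 with H2-D1 and Eef1a1 with Mir703; near-identical or overlapping genes can share reads, so these are uncertain. Genes with a rho with themselves like that of Klrg1 mostly had partners: Nr4a1, an early response gene of T cell receptor signalling, had 12, Fosb 11, Nfkbia, the NF-kB inhibitor, 11, Junb 7 and S100a6 4. Rgs2, a regulator of G protein signalling, resembled Klrg1, with a smaller rho of 0.505 with itself and 0 partners.

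**Figure D4:**
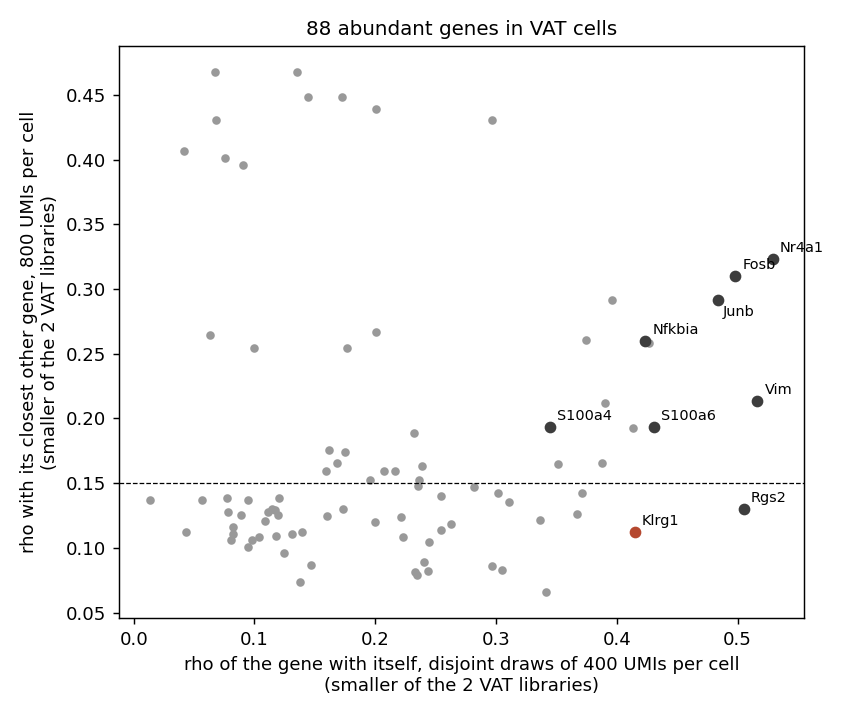
For 88 genes with 1000 or more UMIs in each VAT library, the rho of the gene with itself between disjoint draws of 400 UMIs per cell (x axis) against its rho with its closest other gene at 800 UMIs per cell (y axis), each the smaller of both VAT libraries; the dashed line marks 0.15. Klrg1, in red, lies far right at 0.415 and low at 0.112, while Nr4a1 lies at 0.529 and 0.323.

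VAT cells were then put in classes by their Klrg1 UMIs after thinning, with classes chosen after seeing the data. With 0, 1 to 2, 3 to 4 and 5 or more Klrg1 UMIs there were 78, 103, 73 and 76 cells in VAT library 2 and 69, 117, 72 and 56 in VAT library 3. Cells without a Klrg1 UMI at full depth had lower medians of tissue Treg list UMIs per 1000 than cells with one: 9.62 with and 7.14 without in VAT library 2, and 8.83 with and 7.55 without in VAT library 3. Those medians cover 53 and 34 cells without a Klrg1 UMI at full depth. The values below are means after thinning, where the class with 0 also takes in cells that lost their Klrg1 UMIs, so they are not like measures. The list had 8.05 UMIs per cell (7.43 to 8.71) in the class with 0, then 8.25, 8.10 and 8.49 in VAT library 2, and 7.38 (6.75 to 8.05), 7.49, 7.33 and 8.75 (7.99 to 9.56) in VAT library 3. Il1rl1 had 0.833, 0.796, 1.11 and 1.04 UMIs per cell in VAT library 2 and 0.812, 0.778, 0.806 and 0.875 in VAT library 3. Gata3, the T helper 2 and tissue Treg factor, had 1.19, 1.17, 1.07 and 1.18, and 0.899, 0.795, 0.736 and 1. The intervals of the lowest and the highest class overlapped for both genes in both libraries.

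S100 and annexin genes were lower in the class with 0 Klrg1 UMIs than in the next 2 classes in both libraries, though not beyond counting error everywhere: 12.9 (12.1 to 13.8), 17.2, 17.9 and 16.1 UMIs per cell in VAT library 2 and 16.4 (15.5 to 17.4), 17.4 (16.7 to 18.2), 19.8 and 17.8 in VAT library 3. S100a4 alone had 4.31, 5.62, 5.71 and 5.37 UMIs per cell and 5.32, 5.43, 6.08 and 5.79. Il10, the anti-inflammatory cytokine gene, went up with the class in VAT library 3, at 0.348, 0.436, 0.653 and 1.04 UMIs per cell, but not in VAT library 2, at 0.513, 0.864, 0.904 and 0.5. Foxp3 had 0.385, 0.398, 0.425 and 0.303 UMIs per cell in VAT library 2 and 0.203, 0.299, 0.236 and 0.482 in VAT library 3, with no shared order.

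**Figure D5:**
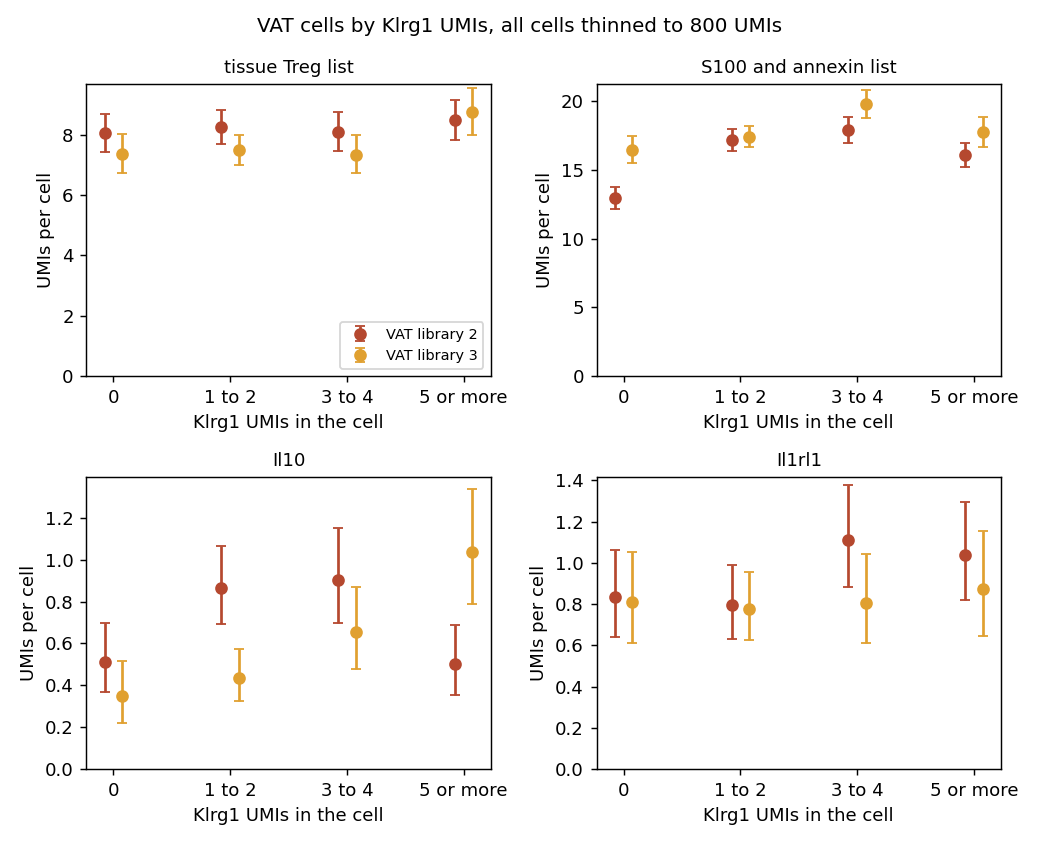
UMIs per cell of the tissue Treg list, the S100 and annexin list, Il10 and Il1rl1 (y axes) in VAT cells by their Klrg1 UMIs (x axis), all cells thinned to 800 UMIs; points are means with exact 95% counting intervals, VAT library 2 in red and VAT library 3 in yellow. The tissue Treg list is 8.05 and 7.38 UMIs per cell in cells with 0 Klrg1 UMIs and 8.49 and 8.75 in those with 5 or more.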

How the data were processed

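The authors deposited UMI counts of each gene symbol in each cell, without normalization. The submitters' processing notes name TopHat2, SAMtools and mm10, and for the counting annotation, cell filter and doublet removal the sources used here give nothing. Columns were assigned to libraries by title and to tissues by source name, and 0 columns were left unused. From the counts, CPM, ratios with exact conditional binomial intervals, thinned shares with exact Clopper-Pearson intervals and rank correlations were computed with Python 3.11.15, numpy 2.4.6, scipy 1.17.1 and pandas 2.3.3 and checked on simulated data. Calls of 2-fold used log2 ratios with 0.5 added to each count. List members needed 20 UMIs over the libraries. No doublet caller was run. Depth per cell was 887 to 3725 UMIs in VAT library 2, 916 to 4973 in VAT library 3 and 819 to 4244 in spleen, and 3 counts were taken as the floor that a count of 0 allows. Named genes were Klrg1, the 15 highest and 10 lowest by the smaller rho, measured members of the ligand, phosphatase and lectin-like lists, up to 6 members of other lists and neighbours within 500 kb. Further list members were named after their values were seen. Klrg1 and the lists were chosen with earlier results of these data known. The alternatives covered scaling, filters, thinning, cells left out and each VAT library left out.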

Additional observations from a re-analysis of the deposited data

How the results depend on the processing

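The direction of the Klrg1 difference between VAT and spleen held under every alternative tried. With cells holding a Foxp3 UMI alone, its ratio was 21.2 in VAT library 2, 17.7 in VAT library 3 and 19.6 in both summed. Without cells holding a marker of another cell type it was 75.7, 68.4 and 72.1. The spleen level of Klrg1 was 173 CPM in the first subset and 45.8 CPM in the second, against 88.9 CPM over all spleen cells. Leaving out each VAT library gave 35.8 to 38.9. The share of cells with a Klrg1 UMI was 83.9% in VAT library 2 and 89.2% in VAT library 3 without thinning, and 61.2% in each after thinning to 400 UMIs, as depth sets it. In spleen it was 5.16% in cells with a Foxp3 UMI. The number of genes following Klrg1 stayed at 0 in both directions under the other measures, filters, depths and cell subsets, and leaving out a VAT library gave 0 to 1 negative and 0 positive. Genes at least 2-fold higher in VAT numbered 783 with 20 or more UMIs and 1469 with 1 or more, and leaving out a VAT library gave 593 to 627. Genes at least 2-fold lower numbered 342 when library totals excluded ribosomal protein genes, 479 with 20 or more UMIs and 1918 with 1 or more, and 343 to 409 with a VAT library left out. The rho of Klrg1 with itself was 0.301 in VAT library 2 and 0.254 in VAT library 3 with cells thinned to 400 UMIs. Of 225 rho values of the 25 named genes under alternatives, 221 kept the sign of the value reported and 219 lay within 1 over the square root of the number of cells. Filters of 50 or more and of 1 or more UMIs change only which genes are tested. The values under these filters equal those reported by construction, so both counts overstate the agreement. Depth limits these values: at 800 UMIs per cell most genes have fewer than 1 UMI per cell. No paired analysis was possible because the tissues share a single replicate number, 2, in the titles, and the sample type of the spleen cells gives another number.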
